A study of Mus musculus with 3 samples.

Results

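The 71 genes described here encode the ligands and receptors of the 4 classical axon guidance systems: the Eph receptors and ephrins, the plexins, neuropilins and semaphorins, the Robo receptors and Slits, and the Dcc and Unc5 receptors with the netrins. The rule takes every protein-coding gene of GENCODE M21 whose symbol belongs to these families and uses no measured value. They are 71 of the 55401 gene rows, of which 21897 are protein-coding. By role, 34 are receptors and 37 are ligands.

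Bulk RNA-Seq was carried out on maxillary processes of *wnt1cre; Rosa26Dlx2/-* mouse embryos (hereafter OE) at embryonic stage E10.5, and 3 OE libraries were analysed. In these embryos a Rosa26CAG-LSL-Dlx2-3xFlag allele, silent until its stop cassette is cut out, expresses *Dlx2* from the CAG promoter once Cre, driven by wnt1cre, has acted. Cre therefore acts in neural crest-derived cells, while surface epithelium, endothelium and blood in the dissected tissue do not come from that lineage. Libraries of wild-type embryos were not used, so no value below compares genotypes, and each describes the level of a gene in OE tissue or a difference between the 3 OE libraries. The replicates are numbered 1 to 3 as names only. The labels describe independent RNA samples and do not give the number of embryos behind each, so the spread between libraries may be in part technical. In such bulk tissue, fewer cells of a type and less RNA per cell cannot be told apart.

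Guidance cues steer migrating cells as well as growing axons. Ephrins are bound to the membrane, so Eph signalling needs contact between cells and runs in both directions, whereas class 3 semaphorins, Slits and netrins are secreted and act over a distance. In the head of the embryo these systems keep neural crest streams apart, shape the sprouting vessels and guide the trigeminal nerve into the maxillary process, and *Ephb2*, *Ephb3* and *Efnb1* are known for their roles in the palate and the facial midline.

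The promoters of 4 members at the ends of the range between libraries are shown first, because these genes recur throughout the results. They were taken by rule as the 2 members with the lowest and the 2 with the highest level in replicate 3 relative to the other libraries, among those whose RefSeq start lay within 50 bases of the GENCODE start. Each run is the RefSeq window of 250 bases before to 50 bases after the gene start, 5′ to 3′ on the strand of the gene (GRCm38.p6). Capitals mark the homeodomain core motif TAATT or its reverse complement AATTA, the core that Dlx proteins bind, searched on both strands.
*Sema3e*, at chr5:14025026-14025325 on the plus strand: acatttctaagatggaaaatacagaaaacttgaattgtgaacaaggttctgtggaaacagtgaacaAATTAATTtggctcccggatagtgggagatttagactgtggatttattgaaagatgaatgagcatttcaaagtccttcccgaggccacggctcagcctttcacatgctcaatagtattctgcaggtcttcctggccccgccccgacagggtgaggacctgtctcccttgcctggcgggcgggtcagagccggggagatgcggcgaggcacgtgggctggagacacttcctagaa
*Robo2*, at chr16:74411776-74412075 on the minus strand: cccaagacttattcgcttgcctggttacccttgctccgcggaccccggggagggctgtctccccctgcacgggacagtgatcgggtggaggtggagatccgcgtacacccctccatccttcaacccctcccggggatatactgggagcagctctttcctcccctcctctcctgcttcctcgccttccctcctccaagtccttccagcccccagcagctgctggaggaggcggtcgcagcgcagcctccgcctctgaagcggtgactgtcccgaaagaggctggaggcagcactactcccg
*Epha8*, at chr4:136956767-136957066 on the minus strand: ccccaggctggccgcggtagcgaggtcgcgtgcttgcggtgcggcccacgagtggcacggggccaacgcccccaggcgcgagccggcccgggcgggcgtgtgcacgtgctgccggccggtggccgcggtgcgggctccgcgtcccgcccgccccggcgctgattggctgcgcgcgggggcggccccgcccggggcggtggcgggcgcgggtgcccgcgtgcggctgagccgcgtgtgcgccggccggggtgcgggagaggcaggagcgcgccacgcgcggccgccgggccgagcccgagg
*Sema6c*, at chr3:95160170-95160469 on the plus strand: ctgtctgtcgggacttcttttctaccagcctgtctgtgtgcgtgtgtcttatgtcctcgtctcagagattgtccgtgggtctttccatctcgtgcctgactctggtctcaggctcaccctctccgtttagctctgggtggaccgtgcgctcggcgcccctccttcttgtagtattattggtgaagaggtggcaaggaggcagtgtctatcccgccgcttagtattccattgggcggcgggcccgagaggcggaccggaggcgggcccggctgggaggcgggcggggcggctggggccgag
Only the *Sema3e* window of these 4 holds the motif, at 2 places that overlap in part. Its GC content is 50.7% with 11 CG dinucleotides, against 84.3% and 56 for *Epha8*, 65.0% and 17 for *Robo2* and 62.7% and 23 for *Sema6c*. RefSeq promoters could be matched to 61 of the 71 members, and for each the window nearest its GENCODE start was taken. For *Sema4d*, *Sema3a* and *Robo1* that window lay 37064, 271370 and 354843 bases from the start. The motif was found in 11 of these 61 (18.0%) and in 27.0% of all 32851 promoters of the table. The member promoters had a median GC content of 64.7% and a median of 22 CG dinucleotides, against 52.7% and 7 over the table. A match of so short a motif describes the letters of the window and not a bound site.

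Counts on genes were 36544554, 35351031 and 40057435 in replicates 1, 2 and 3, and levels are given as counts per 1000000 counts on genes (CPM) after TMM scaling. A gene at 0 could be present at up to 0.0777, 0.0843 and 0.0796 CPM, the level of 3 counts. These limits cover counting error only. *Dlx2*, the overexpressed gene, stood at 235, 201 and 183 CPM (206 ± 26.7, SD, n = 3), and without control libraries this does not check the label. The marker lists of facial tissue set the libraries apart. Mesenchyme markers summed to 1776, 1780 and 2020 CPM in replicates 1, 2 and 3. They were not uniform, since *Prrx1*, at 629, 582 and 419 CPM, and *Pdgfra* were highest in replicate 1 and the other markers of the list in replicate 3. Neuron markers summed to 399, 28.6 and 39.6 CPM, glia markers to 99.1, 25.4 and 26.7 CPM, and epithelium markers to 413, 259 and 245 CPM. Eye and forebrain markers, foreign to most of the maxillary process, summed to 25.0, 158 and 146 CPM, and pigment cell markers to 0.674, 8.37 and 92.0 CPM. The sum of the endothelium markers was closer between libraries, at 335, 376 and 320 CPM, although its markers went both ways, and macrophage markers summed to 24.0, 29.6 and 30.4 CPM. Erythroid markers summed to 2132, 3990 and 4916 CPM, lowest in replicate 1, and muscle markers to 29.1, 26.1 and 64.5 CPM. *Des* alone made up 20.6, 22.2 and 58.2 CPM of the muscle sum, while *Msc* and *Myf5* were highest in replicate 1. Replicate 1 therefore held the most neuron marker RNA, and replicates 2 and 3 the most RNA of eye and forebrain markers. The libraries also differed along gene length and GC content, as given with the differences between libraries.

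Most guidance genes were present in the E10.5 maxillary process. At least 10 counts in every library were found for 65 of the 71 members, where 61.3% of all protein-coding genes passed the same limit. The members below this limit were *Epha6*, *Epha10*, *Plxnb3*, *Robo3*, *Ntn5* and *Unc5d*. *Ntn5* was the only member at or under 3 counts in every library, with 1, 0 and 1 counts. *Epha10* had 8, 0 and 6 counts, and its 0 counts in replicate 2 allow a level of up to 0.0843 CPM. The median member stood at 15.0 CPM against 3.48 CPM over protein-coding genes, and at 1.99 against 0.832 CPM per kb of exonic length. Of the members, 7 had a mean of at least 100 CPM, 38 lay between 10 and 100, 19 between 1 and 10, and 7 under 1 CPM. Summed over all members the level was 2821, 2865 and 2918 CPM, or 2868 ± 49.0 CPM (SD, n = 3), so the total in CPM hardly moved while single genes did. Per kb of exonic length the sum was less even, at 456, 472 and 531, or 486 ± 39.2 CPM per kb.

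**Figure D1:**
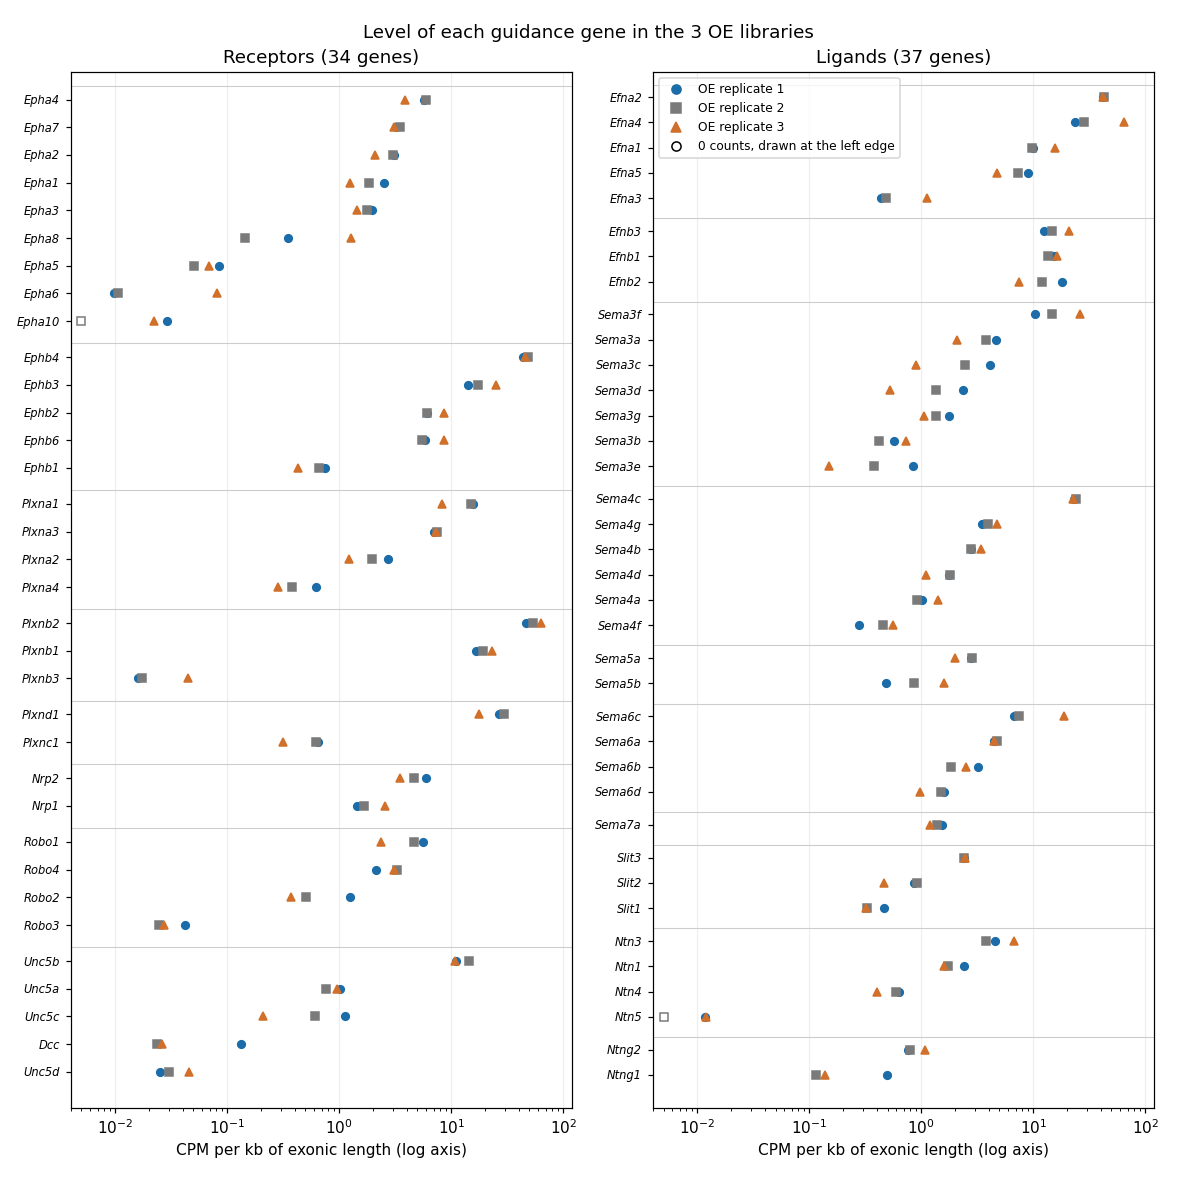
Level of each of the 71 members in the 3 OE libraries, as CPM per kb of exonic length on a log axis, with 34 receptors on the left and 37 ligands on the right, grouped by family and ordered by mean level. Each symbol is 1 library and an open symbol marks 0 counts. By mean level *Plxnb2*, *Ephb4* and *Efna2* lie furthest right, with *Efna4* in replicate 3 alone as high as *Plxnb2* at 64.2 CPM per kb. Wide gaps between libraries are seen for *Epha8*, *Epha6*, *Dcc*, *Sema3e* and *Unc5c*.

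Levels of different genes are compared per kb of exonic length (CPM per kb). On that scale the ephrins summed to 144 ± 24.4 and the Eph receptors to 94.6 ± 7.28 CPM per kb (SD, n = 3). Plexins summed to 122 ± 5.68, semaphorins to 84.8 ± 10.9 and neuropilins to 6.60 ± 0.699 CPM per kb. The Slits reached only 3.55 ± 0.289, the Robo receptors 7.81 ± 1.70, the netrins and netrin-G proteins 8.64 ± 1.50, and the Unc5 and Dcc receptors 13.8 ± 2.02 CPM per kb. Per kb, the Eph and semaphorin systems thus carried most of the mRNA of these 71 members. The Slit and netrin systems, which have fewer members, were well below them in every library. Guidance genes outside the 71, such as the Dcc relative *Neo1*, are not in these sums. The rank order of the members was much the same in all libraries. Spearman's correlation over the 71 genes was 0.985 between replicates 1 and 2, 0.926 between 1 and 3, and 0.959 between 2 and 3, as a description across genes that share each library.

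Among the EphA receptors, tyrosine kinases that bind mainly the ephrin-A ligands, *Epha4* led. Its level was 5.71, 5.95 and 3.84 CPM per kb in replicates 1, 2 and 3. *Epha4* also binds ephrin-B ligands. *Epha7* followed with 3.23, 3.51 and 3.08 CPM per kb and *Epha2* with 3.08, 3.02 and 2.11. The order of these 3 receptors was the same in every library. *Epha1* and *Epha3* were at 1.87 ± 0.618 and 1.73 ± 0.260 CPM per kb, and did not keep one order. *Epha5*, *Epha6* and *Epha10* were lowest, at means of 0.0679, 0.0336 and 0.0170 CPM per kb. *Epha5*, whose annotated exons span 16739 bases, still had 55, 30 and 43 counts, while *Epha6* had 2, 2 and 16.

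*Epha8*, a receptor known from the midbrain and its retinal input, had the widest ratio between libraries of the 58 members with a mean of at least 100 counts, from 63, 24 and 227 counts. Its level was 1.63, 0.674 and 6.03 CPM in replicates 1, 2 and 3, a ratio of 8.94 between the highest and the lowest library. Replicate 3 was the high library and replicate 2 the low one. On the log2 CPM scale it lay 2.46 above the mean of the others in replicate 3, and -2.14 in replicate 2. Pigment cell markers were also highest in replicate 3, where 5 of the 5 measured ones were at least 2-fold higher. Their sum ranged from 0.674 to 92.0 CPM, and 2 of them, *Tyr* and *Tyrp1*, had 0 counts in replicate 1. Neither pigment cell markers nor eye and forebrain markers followed *Epha8* in the other libraries, since both lists were higher in replicate 2 than in replicate 1, whereas *Epha8* was lower in replicate 2. The part of these cells in the *Epha8* level was not tested.

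The EphB receptors, which bind the ephrin-B ligands, summed to a higher level than the EphA receptors in every library. The sums were 70.4, 78.2 and 88.8 CPM per kb in replicates 1, 2 and 3 for EphB, against 16.9, 16.3 and 13.2 for EphA. *Ephb4*, the receptor that pairs with ephrin-B2 on veins, stood at 203, 225 and 213 CPM, or 46.0 ± 2.39 CPM per kb, and was the second of all members on that scale. *Ephb3* was at 14.0, 17.4 and 25.2 CPM per kb in the 3 libraries, highest in replicate 3. *Ephb2*, its partner in palate development, was at 6.07, 6.15 and 8.69 CPM per kb. *Ephb6*, whose kinase domain is inactive, was at 5.88, 5.47 and 8.54 CPM per kb, and *Ephb1* was lowest at 0.616 ± 0.165 CPM per kb. The order of the EphB receptors was the same in all 3 libraries. Per library the family summed to 400.0, 444 and 525 CPM.

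Of the GPI-anchored ephrin-A ligands, *Efna2* was nearly even between libraries as counted. Its 3469, 3226 and 3372 counts correspond to 42.2, 42.5 and 42.0 CPM per kb. *Efna2* differed between libraries by no more than counting noise (chi-square test, Benjamini-Hochberg adjusted p = 0.884). After subtraction of the dependence on exonic length and GC that is fitted over all genes, its log2 ratios to the mean of the others were 0.40, 0.22 and -0.62 in replicates 1, 2 and 3. *Efna4* was at 23.8, 28.3 and 64.2 CPM per kb, so that replicate 3 stood far above the others and put *Efna4* over *Efna2* in that library alone. *Efna1* was at 18.4, 18.0 and 28.9 CPM, or 11.9 ± 3.39 CPM per kb. *Efna5*, a repulsive cue known from topographic mapping, went the other way with 9.02, 7.39 and 4.76 CPM per kb. *Efna3* was low, at 41, 42 and 103 counts.

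The transmembrane ephrin-B ligands were close to each other in level and changed places between libraries. *Efnb1*, the X-linked gene mutated in craniofrontonasal syndrome, was at 15.3, 13.5 and 16.2 CPM per kb. *Efnb3* was at 12.4, 14.9 and 20.9 CPM per kb. *Efnb2*, which marks arteries and is also made by the pharyngeal arches, was at 18.2, 12.0 and 7.40 CPM per kb. *Efnb2* was therefore the highest of the 3 in replicate 1 and the lowest in replicates 2 and 3. The ratio of *Efnb2* to *Efnb3* per kb was 1.47, 0.811 and 0.354 in replicates 1, 2 and 3, and that of *Ephb4* to *Efnb2* was 2.40, 4.02 and 6.20. Which ephrin-B ligand leads in the mean over libraries also depends on the length used, since *Efnb2* then led by coding length or with no division by length. In replicate 3 *Efnb2* was the lowest with no division too, at 50.7 CPM against 55.8 for *Efnb1* and 66.5 for *Efnb3*.

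**Figure D2:**
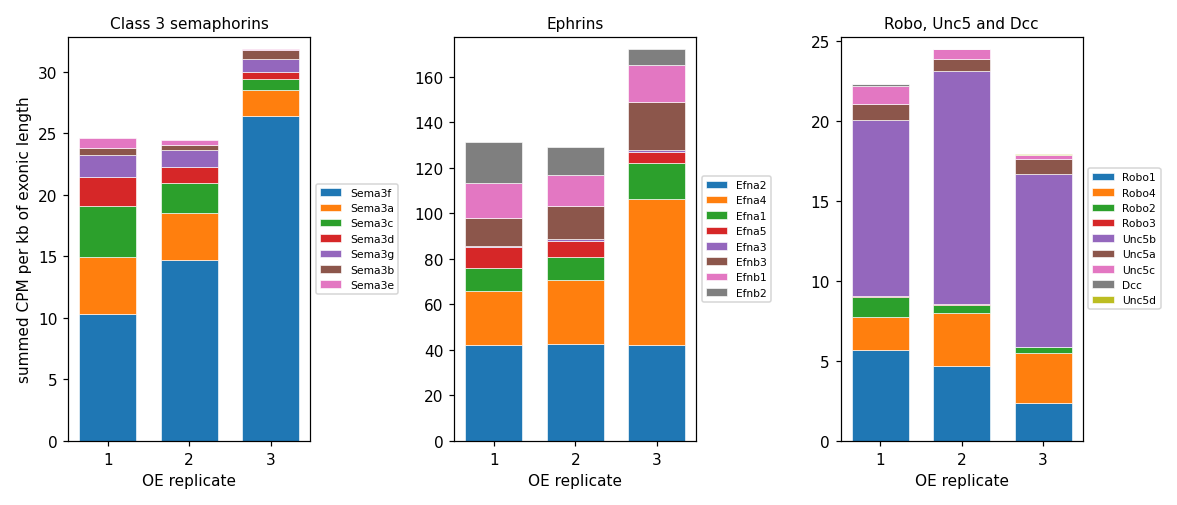
Summed level of class 3 semaphorins, of ephrins and of the Robo, Unc5 and Dcc receptors in each OE replicate, as CPM per kb of exonic length, stacked by gene. *Sema3f* makes up 41.8% of the class 3 bar in replicate 1, 60.3% in replicate 2 and 82.8% in replicate 3.

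The plexins, the signalling receptors of the semaphorins, included the most abundant member. *Plxnb2*, which binds class 4 semaphorins and lies at chr15:89155549-89180788 on the minus strand, was at 363, 417 and 492 CPM (424 ± 64.8, SD, n = 3), or 54.9 ± 8.39 CPM per kb. *Plxnb1*, the receptor of Sema4D, was at 16.7, 19.1 and 23.1 CPM per kb. The ratio of *Plxnb2* to *Plxnb1* was 2.82, 2.82 and 2.76. *Plxnb3* had only 4, 4 and 11 counts.

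*Plxnd1*, which serves endothelial cells as the receptor of Sema3E, was at 26.5, 29.6 and 17.6 CPM per kb, lowest in replicate 3. *Plxnc1*, the receptor of Sema7A, was at 0.649, 0.619 and 0.315 CPM per kb. Among the plexin-A receptors, which form complexes with neuropilins, *Plxna1* led with 15.7, 15.0 and 8.20 CPM per kb. *Plxna3* did not move beyond counting noise, at 7.04, 7.48 and 7.32 CPM per kb (chi-square test, adjusted p = 0.150). The ratio of *Plxna1* to *Plxna3* was 2.23, 2.01 and 1.12 in replicates 1, 2 and 3. *Plxna2* was at 2.75, 1.98 and 1.23 CPM per kb and *Plxna4* at 0.623, 0.381 and 0.284, both highest in replicate 1. None of the 8 plexins with a mean of at least 10 counts differed by 2-fold or more between 1 library and the mean of the others. Per library and direction 2.08% to 12.6% of all genes did, so this does not set the plexins apart. *Plxnc1* was nearest to the 2-fold limit, at -0.99 (log2) in replicate 3. *Plxnb3* was below that count minimum and has no such ratio.

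The neuropilins bind class 3 semaphorins for the plexin-A receptors. *Nrp2*, the partner of Sema3F, was at 5.94, 4.69 and 3.49 CPM per kb, and *Nrp1*, the partner of Sema3A and of VEGF, at 1.44, 1.68 and 2.55. *Nrp2* was the higher in every library, by a ratio of 4.14, 2.79 and 1.37.

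The secreted class 3 semaphorins differed in opposite directions between libraries. *Sema3f* led in every library with 2066, 2727 and 5175 counts, or 10.3, 14.7 and 26.4 CPM per kb. It was highest in replicate 3. *Sema3a*, which repels trigeminal and other sensory axons, was at 4.64, 3.75 and 2.11 CPM per kb. *Sema3c*, known from the cardiac neural crest, was at 4.14, 2.44 and 0.896 CPM per kb. *Sema3d* was at 2.36, 1.34 and 0.525 CPM per kb. Both were highest in replicate 1 and lowest in replicate 3, with no library near another. *Sema3e* had 304, 126 and 53 counts, or 7.88, 3.54 and 1.41 CPM, a ratio of 5.60 between replicates 1 and 3. *Sema3g*, expressed by arteries, was at 1.78, 1.37 and 1.06 CPM per kb, and *Sema3b* at 0.575, 0.418 and 0.728. Summed over the class the level was 186, 169 and 187 CPM, or 24.7, 24.4 and 31.9 CPM per kb, with *Sema3f* high where *Sema3a*, *Sema3c*, *Sema3d* and *Sema3e* were low. The ratio of *Sema3f* to *Sema3a* per kb was 2.22, 3.93 and 12.5 in replicates 1, 2 and 3. After subtraction of the dependence on exonic length and GC, the log2 ratios to the mean of the others were 0.12, 0.05 and -0.17 for *Sema3a* and -0.81, -0.05 and 0.86 for *Sema3f*.

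The class 4 semaphorins are bound to the membrane. *Sema4c*, a ligand of plexin-B2, was at 23.2, 24.2 and 22.6 CPM per kb and made up at least 66.8% of its class in each library. The ratio of *Sema4c* to *Plxnb2* per kb was 0.493, 0.449 and 0.355. *Sema4g* followed at 3.50, 3.93 and 4.77 CPM per kb and *Sema4b* at 2.79, 2.79 and 3.40. *Sema4d*, *Sema4a* and *Sema4f* had means of 1.56 ± 0.401, 1.11 ± 0.266 and 0.433 ± 0.143 CPM per kb.

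In class 5, whose members carry thrombospondin repeats, *Sema5a* was at 2.77, 2.85 and 2.00 CPM per kb. *Sema5b* had 133, 216 and 426 counts, or 0.487, 0.857 and 1.60 CPM per kb, lowest in replicate 1 and highest in replicate 3. Class 6 semaphorins are membrane proteins that bind plexin-A receptors directly. *Sema6c* was at 6.68, 7.49 and 18.8 CPM per kb, with replicate 3 far above the other two. *Sema6a* was at 4.47, 4.70 and 4.46 CPM per kb and as counted did not differ beyond counting noise (chi-square test, adjusted p = 0.301). After subtraction of the dependence on exonic length and GC, its log2 ratios to the mean of the others were -0.35, -0.04 and 0.39. The ratio of *Sema6c* to *Sema6a* was 1.49, 1.59 and 4.22. *Sema6b* was at 3.21, 1.86 and 2.52 CPM per kb and *Sema6d* at 1.59, 1.49 and 0.978. *Sema7a*, the GPI-anchored member, was at 1.52, 1.40 and 1.19 CPM per kb and lay within counting noise (adjusted p = 0.0899).

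Of the secreted Slits, *Slit3* had the smallest ratio between libraries of all members as counted. Its 569, 522 and 557 counts gave 2.43, 2.42 and 2.44 CPM per kb (adjusted p = 0.992). *Slit2* was at 0.868, 0.918 and 0.462 CPM per kb and *Slit1* at 0.468, 0.327 and 0.323. *Slit3* led by exonic length. In the mean over libraries *Slit2*, whose annotated exons are the longest of the Slits, led by coding length or with no division by length. In replicate 3 *Slit3* was the higher with no division too, at 14.8 against 11.8 CPM.

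Of the Robo receptors, *Robo1* had 3600, 2753 and 1479 counts, or 5.65, 4.68 and 2.38 CPM per kb. *Robo2* had 812, 305 and 240 counts, or 1.24, 0.505 and 0.375 CPM per kb, and was high in replicate 1 only. Both are receptors of axons and of neural crest cells. *Robo4*, an endothelial member, was at 2.12, 3.31 and 3.09 CPM per kb and was lowest in replicate 1. The ratio of *Robo1* to *Robo4* per kb was 2.67, 1.41 and 0.770, so *Robo4* was the higher of the pair in replicate 3 alone. *Robo3*, known from commissural axons, had 11, 6 and 7 counts.

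Among the netrins *Ntn3* led with 4.55, 3.80 and 6.78 CPM per kb. *Ntn1*, the founding attractant, was at 2.42, 1.73 and 1.58 CPM per kb, and *Ntn4*, a basement membrane protein, at 0.630, 0.601 and 0.404. The order of these 3 held in every library. Of the membrane-anchored netrin-G proteins, which are synaptic organizers, *Ntng2* was at 0.766, 0.789 and 1.09 CPM per kb. *Ntng1* had 156, 34 and 43 counts, or 4.04, 0.955 and 1.14 CPM, with replicate 1 alone at a high level.

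The netrin receptors were dominated by *Unc5b*, a dependence receptor also found on endothelium. It was at 11.0, 14.6 and 10.8 CPM per kb and held at least 82.8% of its family in each library. *Unc5a* lay within counting noise at 1.01, 0.762 and 0.949 CPM per kb (adjusted p = 0.0760). *Unc5c*, a repulsive receptor found on migrating neurons, had 826, 410 and 149 counts, or 21.4, 11.5 and 3.96 CPM, highest in replicate 1 and lowest in replicate 3 with no libraries close together. The ratio of *Unc5b* to *Unc5c* per kb was 9.81, 24.2 and 52.2. *Unc5d* had 9, 10 and 16 counts. *Dcc*, the attractive netrin receptor of axons, had 68, 11 and 13 counts, or 1.76, 0.309 and 0.345 CPM, so that only replicate 1 stood well above the limit of 3 counts.

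Differences between the 3 libraries were compared first with counting noise, since a single group leaves no other reference. Of the 66 members with a mean of at least 10 counts, 58 differed between libraries beyond counting noise (chi-square test over the 3 libraries, adjusted by the Benjamini-Hochberg method across 17115 genes), beside 81.5% of all genes tested. The share of the members, 87.9%, is thus near the background. This test compares these libraries and not conditions. The 8 members within noise were *Epha5*, *Efna2*, *Sema6a*, *Sema7a*, *Plxna3*, *Slit3*, *Unc5a* and *Unc5d*. The test used the counts as they stand, with no trend on length and GC content removed. Without replicate 3, 39 of 65 members passed, beside 48.8% of all genes. The spread beyond counting error, as the biological coefficient of variation of edgeR, had a median of 0.326 over members and 0.339 over all genes, and the member median was 0.193 without replicate 3.

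Among the 66 members, differences of at least 2-fold between 1 library and the mean of the other 2 were counted by library and direction. The scale was log2 CPM with a prior count of 2. Higher in replicate 1 were 7 members (5.57% of all genes), namely *Dcc*, *Ntng1*, *Sema3e*, *Unc5c*, *Robo2*, *Sema3c* and *Sema3d*. Lower in replicate 1 was *Sema5b* alone (6.69% of all genes). No member was higher in replicate 2 (2.08% of all genes), and 3 were lower there (2.72% of all genes), namely *Epha8*, *Ntng1* and *Dcc*. Higher in replicate 3 were 6 members (12.6% of all genes), namely *Epha8*, *Sema6c*, *Efna4*, *Sema5b*, *Efna3* and *Sema3f*. Lower in replicate 3 were 8 members (10.05% of all genes), namely *Unc5c*, *Sema3e*, *Sema3c*, *Sema3d*, *Robo1*, *Robo2*, *Dcc* and *Efnb2*. As shares of 66, the members past the limit were 10.6% for higher in replicate 1 and 12.1% for lower in replicate 3, and 9.09% for higher in replicate 3. Just inside the limit lay *Efnb2* at -1.001, and just outside it *Plxnc1* at -0.99 and *Sema3a* at -0.98, all in replicate 3.

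These counts turn on which libraries are set against each other. Against replicate 3 alone, that is without replicate 2, 13 members were higher and 6 lower in replicate 1, beside 13.8% and 16.2% of all genes, which for 2 libraries is also 13 lower and 6 higher in replicate 3. Without replicate 3, 5 were higher and 0 lower in replicate 1 than in replicate 2, beside 3.39% and 2.89% of all genes. Without replicate 1, 4 were higher and 4 lower in replicate 3 than in replicate 2, beside 10.1% and 7.06% of all genes. For the members as for all genes, replicates 1 and 3 were thus the pair with the most genes past the limit. Scaling mattered as well for the members lower in replicate 3, which were 8 with TMM, 13 with library totals and 4 with upper-quartile factors, while 6, 5 and 6 members were higher. Of all genes, 10.05%, 13.7% and 7.37% were lower and 12.6%, 9.56% and 15.9% higher under the same scalings. The share of higher among those past the limit was thus 42.9%, 27.8% and 60.0% for the members and 55.6%, 41.1% and 68.3% for all genes. Library totals moved the median ratio of all genes in replicate 3 by -0.13 and upper-quartile factors by 0.13 (log2).

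The members lower and the members higher in replicate 3 differed in base composition and length. Over the 66 members the log2 ratio of replicate 3 to the others followed GC content with Pearson's r of 0.59 and a Spearman correlation of 0.56, and exonic length with a Spearman correlation of -0.48. Over all genes the corresponding Spearman correlations were 0.42 and -0.44. Replicate 1 had a trend of similar size the other way, with Pearson's r of -0.57 and a Spearman correlation of -0.50 with GC content and 0.39 with exonic length over the members, and Spearman correlations of -0.38 and 0.42 over all genes. The ratios of a gene in the 3 libraries sum to 0, so these trends are not independent of each other. These are descriptions across genes that share the same 3 libraries. The 33 members of lower GC content had a median ratio of -0.71 and the 33 of higher GC content one of 0.34. Members are long and GC-rich for protein-coding genes with a mean of at least 10 counts, with a median of 6928.5 exonic bases and 55.7% GC against 4460 bases and 50.1%. After a smooth trend on length and GC content over all genes was removed, 4 of the 8 members lower in replicate 3 stayed past the limit, namely *Sema3c*, *Sema3d*, *Sema3e* and *Unc5c*. *Epha8*, *Sema5b* and *Sema6c* stayed past it on the high side. *Nrp1* and *Unc5d* passed it only after the removal, at 1.42 and 1.25, and *Unc5d* rests on few counts. Of all genes, 7.32% were then lower and 6.88% higher in replicate 3, so the 4 and 5 of 66 members are near the background. Of the 7 members higher in replicate 1, 5 stayed, namely *Sema3c*, *Sema3e*, *Ntng1*, *Unc5c* and *Dcc*, beside 5.57% of all genes.

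**Figure D3:**
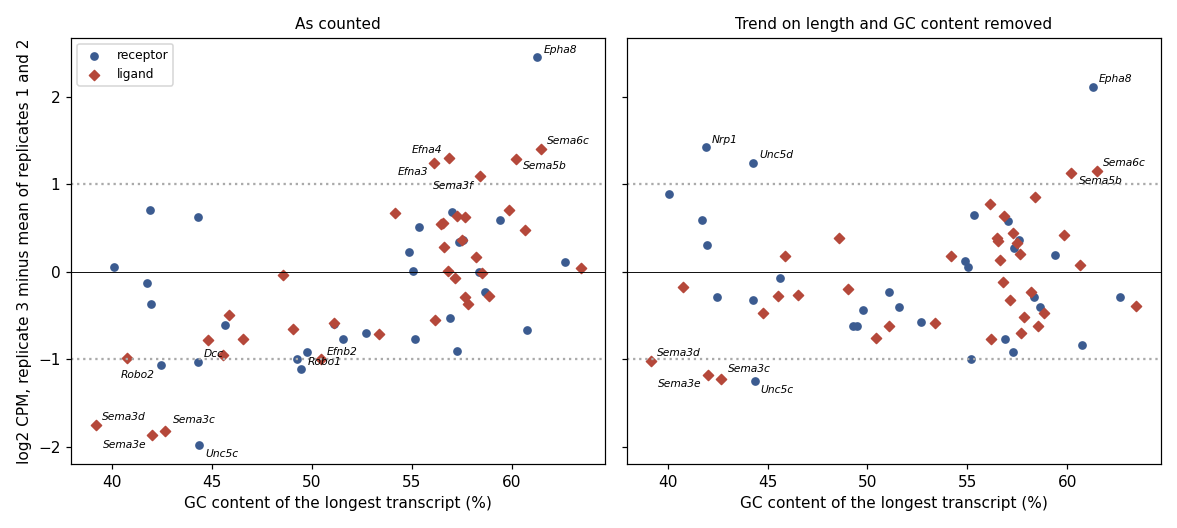
Difference in log2 CPM between replicate 3 and the mean of replicates 1 and 2 for the 66 members with a mean of at least 10 counts, against the GC content (%) of the longest transcript, as counted (left) and after the trend on length and GC content was removed (right). Dotted lines mark 2-fold. *Sema3c*, *Sema3d*, *Sema3e* and *Unc5c* lie below and *Epha8*, *Sema5b* and *Sema6c* above the lines in both panels.

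Members that were high in replicate 1 moved with markers of other cells. All 12 neuron markers were at least 2-fold higher in replicate 1, none was at 0 in all libraries, and their sum ranged from 28.6 to 399 CPM. The median neuron marker was at 3.77, -2.57 and -1.36 in replicates 1, 2 and 3 (log2 against the mean of the others). *Dcc* and *Ntng1* were also highest in replicate 1, at 2.26 and 1.90, while their levels in replicates 2 and 3 lay close together. *Robo2* followed in part, at 1.50, -0.43 and -1.07 in replicates 1, 2 and 3. Of the 7 glia markers 6 were at least 2-fold higher in replicate 1. Epithelium markers, of which 4 of 8 were 2-fold higher in replicate 1 and 4 of 8 lower in replicate 3, had a median of 1.02, -0.09 and -1.06. The list was not uniform, since *Krt5* stood at -0.75 in replicate 1 and 1.34 in replicate 3, and *Krt18* was also highest in replicate 3, at 0.52. *Sema3c*, *Sema3d*, *Sema3e* and *Unc5c* fell in the order of the list median, with values of 1.48 to 1.79 in replicate 1, 0.08 to 0.34 in replicate 2 and -1.97 to -1.75 in replicate 3. This order is not particular to epithelium markers. *Sema3a* also had it, at 0.72, 0.26 and -0.98, as did the median of the intracellular effectors listed below, at 0.31, 0.11 and -0.36. The part of neuronal, glial or epithelial cells in these values was not tested. Endothelium markers had medians of -0.19, 0.12 and 0.07, but they were not uniform, and in replicate 3 *Kdr*, *Cdh5* and *Tek* were at -1.11, -0.75 and -0.75 and *Cldn5*, *Emcn* and *Esam* at 0.95, 0.51 and 0.46. Members with a vascular role were not uniform either. *Ephb4* was at -0.11, 0.11 and -0.01, *Robo4* at -0.59, 0.37 and 0.22 and *Plxnd1* at 0.21, 0.45 and -0.66. *Unc5b* was at -0.19, 0.42 and -0.23. *Efnb2* and *Sema3g*, both named above for arteries, fell from replicate 1 to replicate 3, at 0.95, 0.05 and -1.001 and at 0.56, -0.01 and -0.55. *Nrp1*, the partner of VEGF, rose, at -0.53, -0.18 and 0.71.

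**Figure D4:**
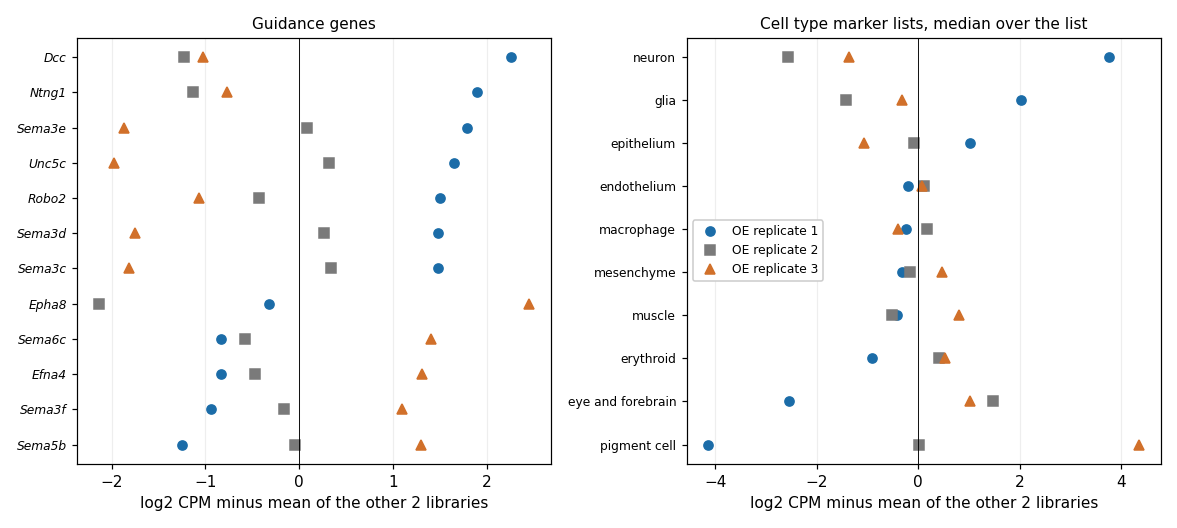
Difference in log2 CPM between each OE replicate and the mean of the other 2 for 12 members (left), which are the 10 with the largest ratio between libraries among members with a mean of at least 100 counts, plus *Ntng1* and *Dcc*, and the median of the same difference over each cell type marker list (right). Replicate 1 is far to the right for *Dcc*, *Ntng1* and the neuron list, and replicate 3 for *Epha8* and the pigment cell list.

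Several members lie near each other in the genome (GENCODE M21, GRCm38), and the values of such neighbours are given side by side. *Sema3d* (chr5:12383385-12588948), *Sema3a* (chr5:13125414-13602565) and *Sema3e* (chr5:14025276-14256689) follow one another on the plus strand of chromosome 5. In replicate 3 they were at -1.75, -0.98 and -1.87 (log2 against the mean of the others), and at -1.02, -0.17 and -1.18 after the trend on length and GC content was removed. *Efna1*, *Efna3* and *Efna4* lie together at chr3:89271733-89338028 on the minus strand, and were at 0.67, 1.25 and 1.31 in replicate 3, and at 0.18, 0.78 and 0.64 with the trend removed. *Robo1* and *Robo2*, 846 kb apart on chromosome 16 and on opposite strands, were at -1.11 and -1.07 in replicate 3, and at -0.61 and -0.29 with the trend removed. In replicate 1 *Robo2* was the further of the pair, at 1.50 against 0.76. *Ephb2* and *Epha8* lie 93.4 kb apart on chromosome 4 and differed in size, at 0.51 and 2.46 in replicate 3. Other neighbours went opposite ways in replicate 3, *Ephb6* at 0.59 and *Epha1* at -0.76, 738 kb apart on chromosome 6, and *Efnb3* at 0.62 and *Ntn1* at -0.37, 1153 kb apart on chromosome 11.

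The rest of the pathway was described through lists of other guidance genes and of intracellular effectors. Of 23 other guidance cues and receptors, 20 of the 22 tested differed beyond counting noise, beside 81.5% of all genes. The receptor phosphatases *Ptprs* at 372, 431 and 413 CPM and *Ptprf* at 377, 316 and 188 CPM were among the most counted genes of the list, with *Ptk7* at 208, 204 and 192 CPM. Per kb the order of the means was *Ptk7* at 37.4, *Ptprf* at 32.1 and *Ptprs* at 27.0 CPM per kb. In replicate 1, 7 of the list were at least 2-fold higher (5.57% of all genes), namely *Nell2*, a Robo3 ligand, the adhesion molecules *Dscam*, *Dscaml1*, *Chl1*, *Cntn1* and *Cntn2*, and *Met*, the HGF receptor. With the trend on length and GC content removed, *Chl1* at 0.74 and *Cntn1* at 0.95 were under this limit. The widest ratios between libraries belonged to *Lrrc4c*, with 1, 6 and 12 counts, *Dscam*, with 30, 3 and 4 counts, and *Dscaml1*, with 24, 3 and 8 counts. All of these rest on few counts, and *Lrrc4c*, with a mean under 10 counts, is too shallow for a ratio to be read. *Lrrc4c* encodes the ligand of netrin-G1. Neogenin, encoded by *Neo1* and related to Dcc, was at 140, 129 and 86.0 CPM. Its mean of 13.6 CPM per kb stands beside 0.0611 CPM per kb for *Dcc*.

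Of 51 intracellular effectors, which carry guidance signals to the cytoskeleton, 50 differed beyond counting noise, and only *Rnd1* did not, beside 81.5% of all genes and 89.2% of those with a mean of at least 50 counts. *Cfl1*, encoding cofilin, was at 1019.8, 1064 and 1628 CPM, *Cdc42* at 360, 341 and 269 CPM and *Abl1* at 306, 315 and 243 CPM. The widest ratios belonged to *Ngef*, the exchange factor of EphA receptors, at 1.14, 3.74 and 4.75 CPM, and to the kinases *Rock1*, at 77.4, 54.4 and 27.4 CPM, and *Rock2*, at 87.3, 68.4 and 36.9 CPM. Lower by 2-fold in replicate 3 were 4 effectors (10.05% of all genes), *Rock1*, *Rock2*, *Dock1* and *Adam10*, the last a protease that cuts ephrins from the membrane. With the trend on length and GC content removed they were at -0.41, -0.27, -0.63 and -0.55, none of them past the limit. The median effector stood at 0.31, 0.11 and -0.36 in replicates 1, 2 and 3, and the median member at 0.21, 0.00 and -0.10, against 0.01, 0.03 and -0.03 over all genes.

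Counting may bear on a few of these levels. Exonic bases shared with another annotated gene were found for 19 members, and they exceeded 10% for *Efna3*, *Efna4*, *Plxna1*, *Ntn5* and *Ntng2*. Only for *Ntng2* was the other gene on the same strand. The library kit named in the labels does not mark strand, and the strand setting of the counting is not given in the sources used here, so reads of overlapping genes on opposite strands cannot be told apart for these members.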

How the data were processed

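Maxillary processes of 3 OE samples at E10.5 were profiled by poly-A bulk RNA-Seq with paired-end reads. The files the authors deposited hold unnormalized read counts for every gene, 1 file per library. The submitters' processing notes name FastQC, STAR 2.7.3a, HTSeq 0.12.4 and the mm10 build. The annotation release and the strand setting are not given in the sources used here. Rows that name no gene held 14.2%, 15.7% and 16.4% of the counted reads and were left out.

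Identifiers were matched to GENCODE M21 without regard to version (55141 of 55401). Counts were scaled by TMM (edgeR 4.0.16, R 4.3.3). CPM was divided by exonic length only to compare genes, and levels are the mean ± SD over libraries. Genes with a mean of at least 10 counts were tested against counting noise by a chi-square test, adjusted by Benjamini-Hochberg at 0.05, and the spread came from an intercept-only edgeR model. Log2 ratios of 1 library to the mean of the other 2 used a prior count of 2 and have no replicate check. As an alternative, mgcv 1.9.3 was used to fit and subtract a smooth dependence of these ratios on exonic length and GC content. The scripts were tested on simulated data. Promoters come from RefSeq (GRCm38.p6), and DESeq2 1.42.0, Python 3.11.15, numpy 2.4.6, pandas 2.3.3 and matplotlib 3.10.9 were also used.

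Described by library were the 3 highest members of each family per kb, the 10 members of at least 100 mean counts whose libraries differed by the widest ratio, and members at or under 3 counts throughout. From the lists of other guidance genes and effectors, the 3 most abundant genes by CPM and the 3 with the widest ratio were named, and marker lists were given by their sums. Other genes were named after their values were seen. The members and lists were chosen with earlier results of these data known. With a single group, no comparison of genotypes could be tested.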

Additional observations from a re-analysis of the deposited data

How the results depend on the processing

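Of 521 values under alternative settings for 83 results, 499 stayed within the spread or within 1.5 times the count reported, and 22 moved. The spread of a level is the SD of the same 3 libraries, so leaving out 1 of them can seldom move its mean further. Such values stayed largely by construction, and their number is no measure of stability. Within the spread used for it, the median log2 ratio of the members changed sign in replicate 3, from -0.10 to 0.03 with upper-quartile factors. In replicate 2 it went from 0.00 to -0.02 with DESeq2 size factors or all genes of at least 1 count. It was -0.05 there with upper-quartile factors and -0.07 without replicate 3. The members past 2-fold in replicate 3, 6 higher and 8 lower as reported, were 6 and 4 with upper-quartile factors, beside 15.9% and 7.37% of all genes. Members lower in replicate 1, 1 as reported, were 2 with upper-quartile factors, 2 with all genes of at least 1 count and 2 with the trend on length and GC content removed. Of all genes, 8.19%, 7.24% and 4.20% were lower there under these settings. Members lower in replicate 2, 3 as reported, were 5 of 71 with all genes of at least 1 count, beside 4.75% of 28442 genes. Members lower in replicate 3, 8 as reported, were 13 with library totals, 4 with upper-quartile factors and 4 with the trend removed. Of all genes, 13.7%, 7.37% and 7.32% were lower there under these settings. Removing the trend is built to take out differences tied to length and GC content, and the causes of the other shifts were not tested.

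Leaving out 1 library at a time gave 5 to 13 members higher and 0 to 6 lower in replicate 1, beside 3.39% to 13.8% and 2.89% to 16.2% of all genes. In replicate 2, 0 to 4 were higher and 4 to 5 lower, beside 2.89% to 7.06% and 3.39% to 10.1% of all genes. In replicate 3, 4 to 13 were lower, beside 7.06% to 13.8% of all genes. The median biological coefficient of variation of the members ran from 0.193 to 0.425. Members beyond counting noise were 39 to 54 in such fits, beside 48.8% to 77.7% of all genes, and 57 to 62 under other scalings and filters, beside 53.4% to 89.2% of all genes. No paired analysis was possible because there is 1 group. Members under 10 counts are too shallow for a ratio between libraries.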
